A study of Homo sapiens with 18 samples.

Results

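AFAP1L2, KRT79, CREB3L1, SFTA1P, SLPI and LITAF are 6 genes, of 21411 in the count table, whose RNA followed JAG1 in 3D cultures of MDA-MB-231, a human triple-negative breast cancer (TNBC) cell line. They were chosen by their measured values, because each was higher in every JAG1-high library than in every JAG1-low library in 3 separate comparisons. In all, 46 genes met that rule, and 36 of them lay above a CPM of 1 (reads scaled to library size) in at least 3 of the 6 libraries of each comparison. The members were taken from those 46 with their values known, so their differences with JAG1 status are given as a description and without a test.

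Messenger RNA was sequenced from spheroids after 7 days in Matrigel, a basement membrane gel, with 3 biological replicates in each of 6 groups and 18 libraries in all. Jag1WT is the parental line. Jag1KO cells are a pool of clones, each grown from 1 cell after CRISPR-Cas9 editing of JAG1, and both plasmid lines were made from this pool. Jag1KO + rescue cells carried a plasmid with JAG1 cDNA, Jag1KO + ctrl cells carried the empty vector, and both were kept under G418. Parental cells transfected with a nontargeting siRNA or with siRNA against JAG1 are named siCtrl and siJag1, and transfection took place hours before seeding. JAG1 status was compared between Jag1WT and Jag1KO, between Jag1KO + rescue and Jag1KO + ctrl, and between siCtrl and siJag1. Below, the first group of each pair is called JAG1-high and the second JAG1-low.

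Jagged1, the protein made from JAG1, is a transmembrane ligand that binds Notch receptors on a neighboring cell. Many Notch target genes are bound by the transcription factor RBPJ, which needs the active part of the receptor as its partner. The 6 genes have unlike products. AFAP1L2 encodes an adaptor protein that works with the kinase SRC, and KRT79 encodes a type II keratin, one of the proteins of epithelial intermediate filaments. CREB3L1 encodes a transcription factor that is held in the endoplasmic reticulum membrane until proteolysis releases it, and it is known for its action on secretion and collagen genes. SLPI encodes a secreted inhibitor of leukocyte serine proteases. LITAF encodes a membrane protein of late endosomes, and SFTA1P is annotated as a long noncoding RNA that carries the name of a surfactant-associated pseudogene.

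The genes lie apart from each other and from JAG1, and none overlaps another annotated gene. On hg38, with GENCODE gene bounds, AFAP1L2 spans chr10:114294824-114404756 and SFTA1P spans chr10:10784437-10795047, both on the minus strand. KRT79 lies at chr12:52821408-52834311 on the minus strand within the type II keratin cluster. CREB3L1 lies at chr11:46277662-46321409 on the plus strand, SLPI at chr20:45252239-45254564 and LITAF at chr16:11547722-11636381, both on the minus strand. JAG1 is on the same chromosome as SLPI, at chr20:10637684-10673999.

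Promoter windows of RefSeq, which run from 250 bases before to 50 bases after a start site on GRCh38.p14, were matched for 4 of the 6 genes. They were searched on both strands for TGGGAA, the core of the RBPJ site through which Notch acts. The 250 bases before the start are shown for KRT79 and for the first and second of 3 LITAF windows, because these hold the motif, and they are written 5′ to 3′ along the gene with the motif in capitals. In the first LITAF window the motif is on the opposite strand and therefore reads TTCCCA.
KRT79, chr12:52834312-52834561, minus strand: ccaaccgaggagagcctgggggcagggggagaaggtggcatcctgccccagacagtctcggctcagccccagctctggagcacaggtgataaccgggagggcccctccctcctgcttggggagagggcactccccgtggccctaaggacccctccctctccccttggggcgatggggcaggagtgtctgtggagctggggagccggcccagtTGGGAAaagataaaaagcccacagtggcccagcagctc
LITAF window 1, chr16:11587467-11587716, minus strand: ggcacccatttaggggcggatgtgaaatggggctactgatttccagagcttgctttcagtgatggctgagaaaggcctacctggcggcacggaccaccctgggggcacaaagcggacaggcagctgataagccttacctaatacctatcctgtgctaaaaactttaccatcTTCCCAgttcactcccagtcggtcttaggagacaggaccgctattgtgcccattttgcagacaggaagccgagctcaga
LITAF window 2, chr16:11586951-11587200, minus strand: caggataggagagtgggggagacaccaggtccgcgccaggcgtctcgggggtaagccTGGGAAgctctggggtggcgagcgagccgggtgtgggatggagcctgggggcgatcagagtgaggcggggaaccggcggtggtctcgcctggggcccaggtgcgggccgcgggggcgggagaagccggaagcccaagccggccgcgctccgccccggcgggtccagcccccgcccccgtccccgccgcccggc
In KRT79 the motif began 38 bases before the start. In LITAF it began 79 bases before the first start and 193 before the second, while the third window overlaps the second and holds the same occurrence. The LITAF start sites are inside the gene bounds given by GENCODE, and so are those of CREB3L1 (chr11:46295159) and AFAP1L2 (chr10:114404502). These 6 letters are common, being present in 24.0% of 35116 windows of the same length, so a match describes the sequence and does not mark a site. The windows of AFAP1L2 and CREB3L1 and that of JAG1 did not hold TGGGAA. The CREB3L1 window held GGAATG, the letters of a TEAD site, 208 bases before the start, and 14.0% of all windows hold them. No match in these 4 genes was found for TGANTCA (an AP-1 site, 7.71% of windows), TGACGT (a CRE core, 7.98%) or TATAAA (11.5%). The GC content was 80% in the AFAP1L2 window, 67.3% in that of KRT79 and 64.7% in that of CREB3L1, and 54.3%, 76% and 79% in those of LITAF, against a median of 58.7% over all windows.

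The targeted gene followed the labels. JAG1 was at 433, 585 and 522 CPM in the 3 Jag1WT libraries and at 116, 205 and 149 CPM in Jag1KO. It reached 534, 657 and 646 CPM in Jag1KO + rescue and 110, 134 and 147 CPM in Jag1KO + ctrl. With siCtrl it was at 441, 626 and 531 CPM and with siJag1 at 166.5, 203 and 131 CPM. JAG1 transcripts thus stayed at 30.5% of the Jag1WT mean in Jag1KO and at 32.5% in siJag1, and these measure RNA, not protein. Libraries held 10330581 to 18327890 counted reads. A list of 20 proliferation genes summed to 475 to 1049 CPM in the 9 JAG1-high libraries but to 541 to 2800 CPM in the 9 JAG1-low libraries, where 5 libraries exceeded 1500 CPM (Jag1KO replicates 2 and 3, Jag1KO + ctrl replicates 1 and 2 and siJag1 replicate 2). Of the markers of the line, VIM (2184 CPM or more), CD44, FN1, AXL and EGFR were high in every library, and ESR1 was at 0 in 17 of 18. PGR, the other hormone receptor listed, was at 0 in only 6 of 18 and reached 1.77 CPM in Jag1KO + rescue. Markers of other cells varied. PTPRC, CD3E, CDH5, COL1A2, DCN and SFTPB were at 0.202 CPM or less in every library, whereas PECAM1 (0.954 to 15.1 CPM), COL1A1 (2.66 to 10.0 CPM) and CD68 (88.9 to 209 CPM) were present in all 18, and NKX2-1 reached 2.70 CPM in 1 library and was at 0 in 5. By summed CPM the fibroblast list ran from 5.43 to 10.9 in JAG1-high and from 3.17 to 8.26 in JAG1-low libraries, the endothelial list from 1.09 to 8.48 and from 1.37 to 15.6, the immune list from 94.9 to 186 and from 89.6 to 209, and the lung epithelium list from 0 to 0.234 and from 0 to 2.70. The part of other cells in the results was not tested.

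A gene counted as separated upward in a comparison when its 3 JAG1-high libraries all lay above its 3 JAG1-low libraries. That held for 7.22% of genes above the filter in Jag1WT against Jag1KO, 16.5% in rescue against ctrl, 5.15% in siCtrl against siJag1 and 0.286% in all 3 together. All 6 members were separated in all 3 because the rule demanded it, and nothing is read from that count. By the mean of the 3 log2 differences KRT79 ranked 4, AFAP1L2 6, SFTA1P 10, SLPI 11, CREB3L1 18 and LITAF 30 among the 46. The narrowest gap of any member was that of SLPI in the siRNA comparison, where the lowest siCtrl library was 1.10 times the highest siJag1 library. Just outside the rule was NRBP1, whose lowest siCtrl library (153.6 CPM) was 0.999 times its highest siJag1 library (153.7 CPM). IRF2BP2 (0.997 times) and TGFBR1 (0.994 times) followed it.

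**Figure D1:**
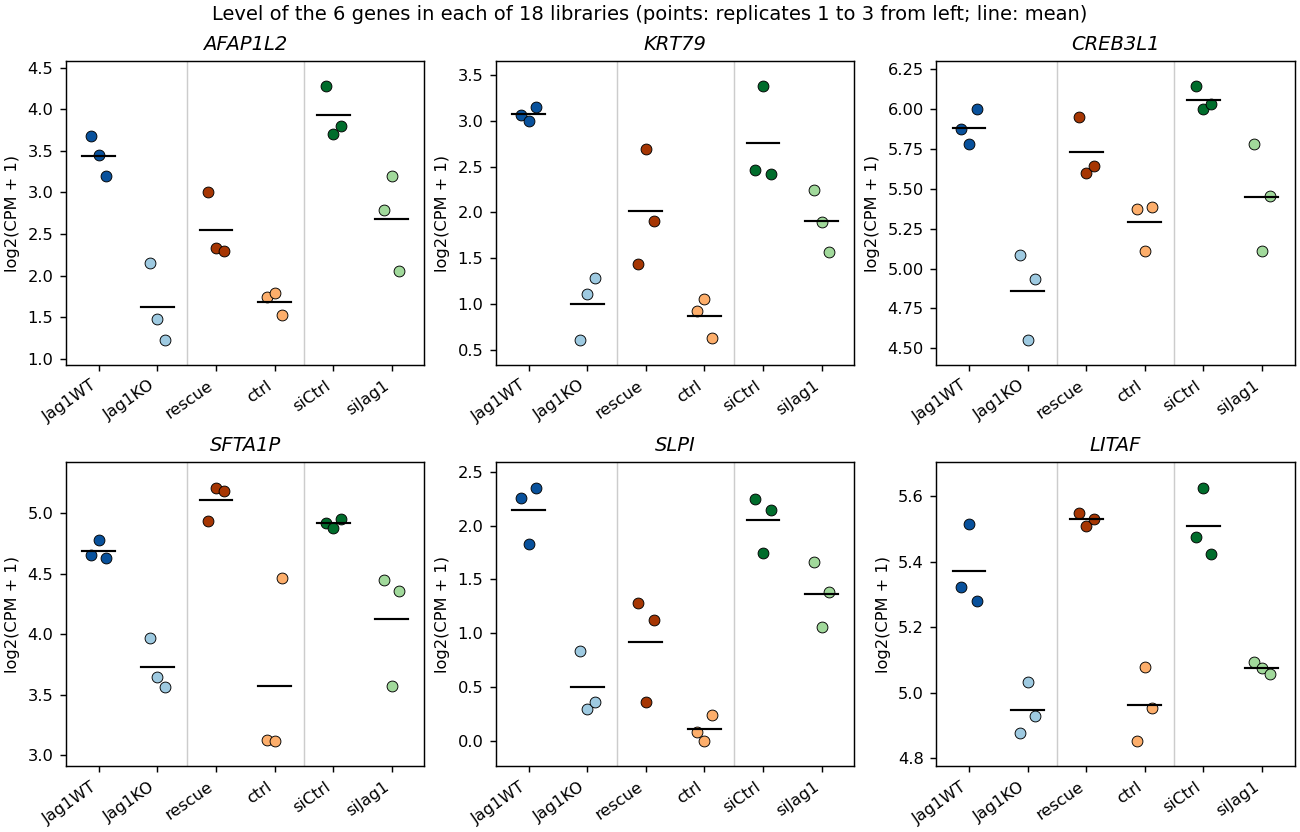
Each panel plots one gene in 18 libraries as log2(CPM + 1), with points for replicates 1 to 3 from left to right and a line at the mean of each group. In each pair of groups divided by grey lines, the left group is JAG1-high and its 3 points lie above the 3 points on the right, and the vertical scales differ between panels and do not start at 0 in each.

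AFAP1L2, the SRC adaptor, was at 11.9, 9.92 and 8.15 CPM in Jag1WT and at 3.46, 1.78 and 1.34 CPM in Jag1KO, a ratio of means of 4.56. The rescue libraries held 7.02, 4.03 and 3.93 CPM and the ctrl libraries 2.34, 2.46 and 1.87 CPM, a ratio of 2.25. In siCtrl the values were 18.4, 12.1 and 12.9 CPM and in siJag1 they were 5.90, 8.17 and 3.15 CPM, a ratio of 2.52. Within each pair the groups did not overlap, yet across pairs they did, since siJag1 replicate 2 (8.17 CPM) lay above all 3 rescue libraries. On the scale of log2(CPM + 1) the differences were 1.82 ± 0.31, 0.86 ± 0.24 and 1.25 ± 0.38 (SE, n = 3 per group). In bulk RNA, fewer cells that express a gene and less of its RNA per cell cannot be told apart, here or for the genes below.

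KRT79, the keratin, showed the widest gap with the knockout, where its lowest Jag1WT library was 4.88 times its highest Jag1KO library. Its 3 Jag1WT libraries were at 7.38, 6.99 and 7.89 CPM and its Jag1KO libraries at 0.522, 1.16 and 1.43 CPM. The rescue libraries held 1.70, 5.44 and 2.76 CPM against 0.899, 1.08 and 0.542 CPM in ctrl. The siCtrl libraries held 4.53, 9.37 and 4.34 CPM against 3.74, 2.70 and 1.96 CPM in siJag1. Rescue replicate 2 and siCtrl replicate 2 stood high in their groups, and the rescue and siJag1 libraries overlapped. KRT79 rests on few reads, 331 in the 3 Jag1WT libraries and 38 in Jag1KO. The ratio of mean CPM was 7.15 for Jag1WT over Jag1KO, 3.93 for rescue over ctrl and 2.17 for siCtrl over siJag1.

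CREB3L1, the membrane-bound transcription factor, was a well-expressed member with a moderate difference. It was at 57.8, 53.9 and 62.9 CPM in Jag1WT and 32.9, 22.5 and 29.6 CPM in Jag1KO, a ratio of means of 2.05. In rescue it was at 60.9, 47.6 and 49.1 CPM and in ctrl at 40.5, 33.6 and 40.8 CPM, a ratio of 1.37. In siCtrl it was at 69.7, 63.0 and 64.3 CPM and in siJag1 at 53.9, 33.5 and 42.9 CPM, a ratio of 1.51. The log2 differences were 1.03 ± 0.17, 0.44 ± 0.14 and 0.61 ± 0.20 (SE, n = 3 per group). The ctrl libraries, which carry the empty vector, all lay above the Jag1KO libraries, although only from 33.6 against 32.9 CPM at the nearest.

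SFTA1P, the noncoding RNA, was at 24.2, 26.5 and 23.7 CPM in Jag1WT and at 14.7, 11.5 and 10.8 CPM in Jag1KO, a ratio of means of 2.01. The rescue libraries stood at 29.6, 36.1 and 35.3 CPM, and the ctrl libraries at 7.73, 7.67 and 21.0 CPM, a ratio of 2.77. In siCtrl it was at 29.3, 28.5 and 30.0 CPM and in siJag1 at 20.8, 10.9 and 19.4 CPM, a ratio of 1.72. The 3 siCtrl libraries differed little among themselves (SD 0.766 CPM), whereas ctrl replicate 3 was far above the other ctrl libraries. Per gene length SFTA1P had the highest level of the 6 genes, 35.8 ± 2.09 RPKM (CPM divided by gene length, SD, n = 3) in Jag1WT. On that scale Jag1WT held 18.6 RPKM of CREB3L1, 9.30 of LITAF, 5.85 of SLPI, 3.59 of KRT79 and 1.56 of AFAP1L2.

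SLPI, the protease inhibitor, was the lowest member in reads. Its 3 Jag1WT libraries held 60, 34 and 63 reads (3.79, 2.56 and 4.11 CPM) and its Jag1KO libraries 12, 3 and 3 reads (0.783, 0.232 and 0.287 CPM). The rescue libraries held 21, 4 and 20 reads (1.43, 0.283 and 1.17 CPM), and the ctrl libraries 1, 0 and 3 reads, where a count of 0 allows up to 3 reads. The siCtrl libraries were at 3.75, 2.36 and 3.43 CPM and siJag1 at 2.15, 1.08 and 1.61 CPM. Rescue replicate 2, with 4 reads, was below 2 of the 3 Jag1KO libraries and just above ctrl replicate 3, so the separation in the plasmid pair rests on a difference of 1 read before scaling. In that pair SLPI was above 1 CPM in only 2 of 6 libraries and fell below the filter, and in the knockout pair it passed only through the Jag1WT libraries. The ratio of mean CPM was 8.03 for Jag1WT over Jag1KO and 1.97 for siCtrl over siJag1. For rescue over ctrl, the ctrl libraries held 4 reads in all. There the ratio of pooled reads, scaled by library size and TMM factor, was 12.3 with an exact 95% interval of 4.47 to 46.9. This interval covers counting error only and is no test, since the rule used this pair.

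LITAF, the endosomal membrane protein, had the smallest difference of the 6 in the knockout and siRNA pairs. It was at 39.0, 44.7 and 37.9 CPM in Jag1WT and at 28.4, 31.7 and 29.4 CPM in Jag1KO, a ratio of means of 1.36. In rescue it was at 45.9, 44.5 and 45.2 CPM and in ctrl at 27.9, 32.8 and 30.0 CPM, a ratio of 1.496. In siCtrl it was at 43.5, 48.4 and 41.9 CPM and in siJag1 at 33.1, 32.7 and 32.3 CPM, a ratio of 1.36. The log2 differences were 0.43 ± 0.09, 0.57 ± 0.07 and 0.43 ± 0.06 (SE, n = 3 per group).

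**Figure D2:**
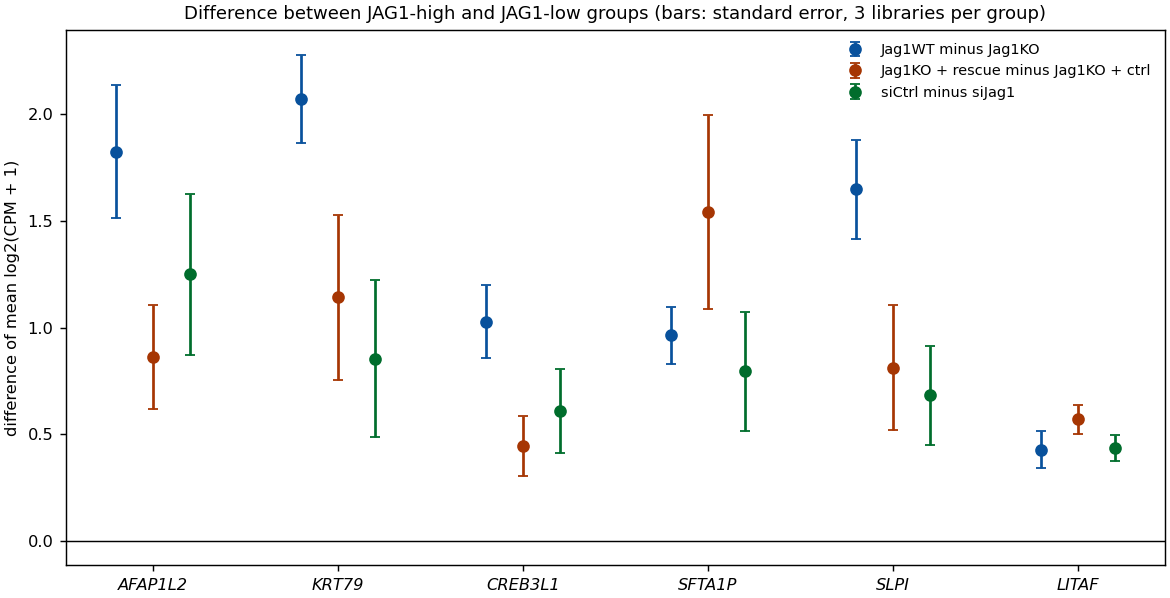
The vertical axis is the difference of mean log2(CPM + 1) between the JAG1-high and the JAG1-low group for each gene, with the standard error as bars (3 libraries per group). KRT79 reaches 2.07 in Jag1WT minus Jag1KO, SFTA1P is the only one of the 6 genes whose rescue difference exceeds 1.5, and LITAF lies between 0.43 and 0.57 in all 3 comparisons.

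The rule compared groups only within each pair, and over all libraries the genes parted. In LITAF all 9 JAG1-high libraries (37.9 CPM or more) lay above all 9 JAG1-low libraries (33.1 CPM or less), and in SFTA1P likewise (23.7 against 21.0 CPM). That was 2 of the 6 members, where 0.0937% of 12803 genes did so, 12 genes with JAG1 among them. Since the within-pair part of this order was chosen, the count is a description. The other members overlapped across pairs, with rescue the lowest JAG1-high group and siJag1 the highest JAG1-low group. For AFAP1L2 the order of mean CPM was siCtrl (14.5), Jag1WT (9.98), siJag1 (5.74), rescue (4.99), ctrl (2.22) and Jag1KO (2.19). Of these neighbors siCtrl did not overlap Jag1WT, although only from 12.1 against 11.9 CPM at the nearest, and rescue did not overlap ctrl. For KRT79 it was Jag1WT (7.42), siCtrl (6.08), rescue (3.30), siJag1 (2.80), Jag1KO (1.04) and ctrl (0.840). There siJag1 did not overlap Jag1KO (1.96 against 1.43 CPM at the nearest), while the other neighbors overlapped. SLPI ran from Jag1WT (3.48) and siCtrl (3.18) to siJag1 (1.61), rescue (0.962), Jag1KO (0.434) and ctrl (0.0802). There siCtrl did not overlap siJag1 and Jag1KO did not overlap ctrl, although the nearest Jag1KO and ctrl libraries held 3 reads each. For CREB3L1 the order was siCtrl (65.7), Jag1WT (58.2), rescue (52.5), siJag1 (43.4), ctrl (38.3) and Jag1KO (28.3), and the ranges from Jag1WT to ctrl each overlapped the next. SFTA1P and LITAF had rescue at the top (33.7 and 45.2 CPM), siCtrl and Jag1WT after it, and siJag1 (17.0 and 32.7 CPM) above the 2 knockout groups, which overlapped each other. How often neighboring groups were apart over all genes was not counted, so these orders are a description.

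How far rescue, knockdown and their controls differed from groups with the same JAG1 status was tested with edgeR's quasi-likelihood test on the counts, with Benjamini-Hochberg adjustment over all genes. The rule did not compare these groups, but it chose the members on the values of the same libraries. High values in Jag1WT and low values in Jag1KO helped a gene to meet it. This choice can shift the fold changes and p values of the members, so they are not free of the rule. The 4 comparisons also share groups with each other. A gene was called at an adjusted p below 0.05 with a fold change above 1.5. Without a replicate block, no member was called in any of the 4, of 5 tested in ctrl against Jag1KO and 6 tested in each of the others, and the members at an unadjusted p under 0.05 numbered 0, 4, 1 and 4 in the order given below, where 5.81%, 4.74%, 1.38% and 25.04% of all genes tested were under it. Over all genes tested, 0% were called in ctrl against Jag1KO, 0.0698% in siJag1 against Jag1KO, 0% in siCtrl against Jag1WT and 3.47% in rescue against Jag1WT. Replicate numbers paired the libraries in the last 2 of these comparisons. With a replicate block, 3 members were called in rescue against Jag1WT (10.5% of all genes) and 0 in siCtrl against Jag1WT (0.00778%).

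Rescue against Jag1WT was the comparison in which members came nearest to a call without the block. SLPI was lower in Jag1KO + rescue than in Jag1WT by a log2 fold change of -1.87 (SE 0.46, edgeR adjusted p = 0.0595), AFAP1L2 by -1.03 (SE 0.27, 0.0706) and KRT79 by -1.20 (SE 0.38, 0.102). In each of the 3 genes every rescue library lay below every Jag1WT library. SFTA1P was apart in the other direction, with its lowest rescue library at 29.6 CPM and its highest Jag1WT library at 26.5 CPM. The share of all genes apart in this pair was not counted, so this is a description. JAG1 itself was at 119% of its Jag1WT mean in rescue. The rescue means were 27.6% of Jag1WT for SLPI, 44.5% for KRT79 and 50.0% for AFAP1L2. In contrast, SFTA1P stood at 136% (log2 fold change 0.41, SE 0.13, adjusted p = 0.11), LITAF at 111% (0.13, SE 0.11, 0.508) and CREB3L1 at 90.2% (-0.18, SE 0.13, 0.425). Replicate numbers paired the libraries of these 2 groups, with correlations of same-numbered deviations of 0.54, 0.60 and 0.37. With the replicate block, 3 members were called, all lower in rescue (SLPI with an adjusted p of 0.00406, AFAP1L2 0.00427 and KRT79 0.0145), where 10.5% of all genes were called. DESeq2 without the block also called 3 members, where it called 6.85% of all genes.

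In siJag1 against Jag1KO, which had like JAG1 RNA levels (167 ± 35.7 and 157 ± 45.1 CPM, SD, n = 3), all 6 fitted values were above 0. Jag1KO transcripts come from an edited gene, and the paper checked the knockout by DNA sequencing and Western blotting. Like RNA levels therefore do not mean like levels of Jagged1 protein. The rule favored low values in Jag1KO, so nothing is read from the sign in this pair. SLPI, which passed the filter there only through the 3 siJag1 libraries, had a log2 fold change of 1.79 (SE 0.52), KRT79 1.45 (SE 0.43), AFAP1L2 1.35 (SE 0.46) and CREB3L1 0.59 (SE 0.22), with edgeR adjusted p values of 0.721, 0.76, 0.95 and 0.958. SFTA1P (0.44, SE 0.27) and LITAF (0.11, SE 0.12) had adjusted p values of 1. In ctrl against Jag1KO CREB3L1 was at 0.42 (SE 0.18, edgeR adjusted p = 0.76) and the 4 other tested members lay between -0.28 and 0.00. SLPI was not tested there. In siCtrl against Jag1WT the values ran from -0.29 for KRT79 to 0.53 for AFAP1L2 (SE 0.20), and every adjusted p was 1.00. These intervals are wide, and a missed threshold does not show that the groups were alike.

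**Figure D3:**
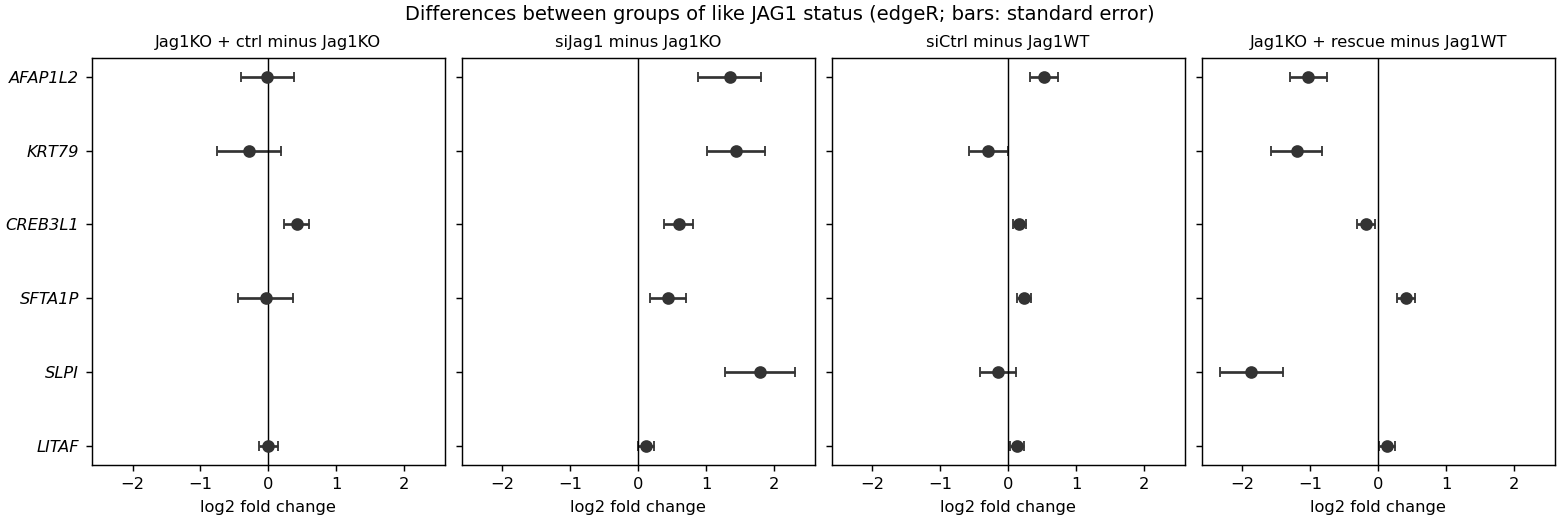
Points are edgeR log2 fold changes of the members between groups of like JAG1 status, with standard errors as bars (3 libraries per group), and SLPI was not tested in Jag1KO + ctrl minus Jag1KO. AFAP1L2, KRT79 and SLPI lie between -1.03 and -1.87 in rescue minus Jag1WT and between 1.35 and 1.79 in siJag1 minus Jag1KO, while LITAF stays within 0.13 of 0 in all 4 panels.

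The relatives and known partners of the members were then tested with edgeR in the 3 comparisons of JAG1 status, to see whether a member moved with its family. Of 87 such genes in the count table, 48, 48 and 47 passed the filter, and 1 was called, which was higher in Jag1WT than in Jag1KO. The background was 0.704% of genes in Jag1WT against Jag1KO, 0.00776% in rescue against ctrl and 0.0156% in siCtrl against siJag1. The gene called was KRT81, a type II hair keratin from the same cluster as KRT79. KRT81 rose from 29.2, 22.6 and 18.3 CPM in Jag1KO to 45.1, 54.9 and 51.3 CPM in Jag1WT (log2 fold change 1.10, SE 0.18, adjusted p = 0.0419), and the call was lost on leaving out any 1 of 5 of the 6 libraries, all but Jag1KO replicate 1. In siCtrl against siJag1 KRT81 had a log2 fold change of 1.02 (SE 0.23, adjusted p = 0.969) and in rescue against ctrl 0.44 (SE 0.36, 0.412). KRT81 and KRT86 are close paralogs, and the paper counted only reads that mapped uniquely, so reads that match both may be missing from both counts. KRT86 had log2 fold changes of 0.72 (SE 0.25), 0.13 (SE 0.43) and 0.91 (SE 0.21), none of them called.

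Among type II keratins 5 of 16 genes in the table were tested, with median log2 fold changes of 0.43 in Jag1WT against Jag1KO, -0.12 in rescue against ctrl and 0.61 in siCtrl against siJag1, where all genes had medians of -0.01, -0.00 and -0.01. KRT8, the partner of KRT18 in simple epithelia, had values of -0.05 (SE 0.23), -1.55 (SE 0.32, adjusted p = 0.104) and -0.28 (SE 0.23). The neighbors of KRT79 that are nearest in the cluster, KRT4 and KRT78, were at a median of 0.0326 and 0.148 CPM and were not tested. Of type I keratins 5 of 17 were tested and 0 called, with medians of -0.02, 0.02 and 0.09.

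Among the whey acidic protein (WAP) domain genes, the family of SLPI, 4, 4 and 3 of 8 were tested and 0 called. PI3, which encodes the elastase inhibitor elafin and lies 75695 bases from SLPI, had the largest values of the 48 relatives tested, 1.89 (SE 0.44, adjusted p = 0.158), 2.34 (SE 0.80, 0.12) and 1.47 (SE 0.49, 0.969). It was at 7.57, 3.23 and 6.98 CPM in Jag1WT against 2.35, 0.850 and 1.53 CPM in Jag1KO, and at 7.50, 3.98 and 6.70 CPM in siCtrl against 2.89, 0.703 and 3.08 CPM in siJag1. In rescue it was at 6.54, 1.34 and 6.27 CPM against 0.659, 0.180 and 1.93 CPM in ctrl, so that rescue replicate 2 lay below ctrl replicate 3.

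The remaining families gave no calls. The COPII genes, which build the coat that carries cargo out of the endoplasmic reticulum and include known targets of CREB3L1 relatives, had medians of 0.16, 0.44 and 0.04 over 12 genes. In rescue against ctrl all 12 were above 0 and 8 had an unadjusted p under 0.05, where 3965 of 12894 genes did. CREB3 family members and their proteases had medians of -0.05, -0.01 and -0.04 over 7 genes. The AFAP family and partners (5 genes) had medians of -0.02, -0.21 and 0.00, and LITAF relatives and partners, among them the ubiquitin ligases NEDD4 and ITCH, had medians of -0.03, 0.53 and 0.02 over 7 genes. Of the surfactant system 2 of 10 genes in the table were tested, ABCA3 and LAMP3, with median log2 fold changes of 0.65, 0.68 and 0.41. Of the protease targets and partners of SLPI only PLSCR1 was tested, at -0.12, 0.21 and 0.01.

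**Figure D4:**
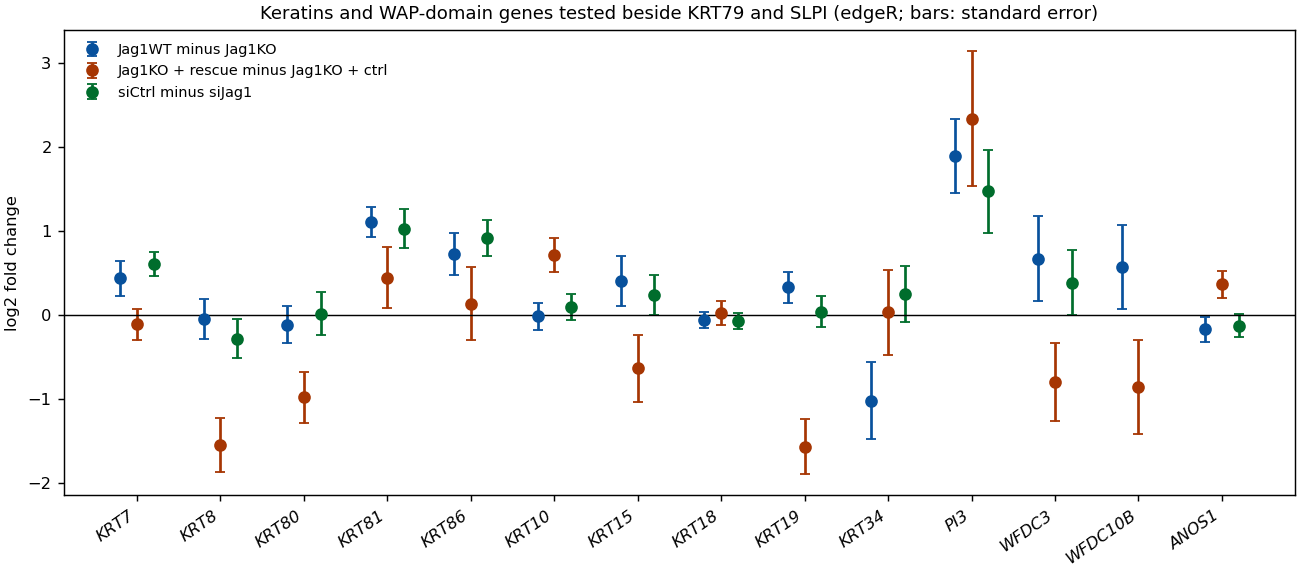
The vertical axis is the edgeR log2 fold change of keratin and WAP-domain relatives in each comparison of JAG1 status, with standard errors as bars (3 libraries per group). KRT81 in Jag1WT minus Jag1KO (1.10) is the one call among these points, and PI3 has the largest values (1.89, 2.34 and 1.47).

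The 3 genes on each side of every member, 36 in all (PI3, KRT8 and others are relatives as well), were tested in the same way. Of these 22, 21 and 22 passed the filter and 0 were called by edgeR in each comparison, while 1, 7 and 2 had an unadjusted p under 0.05, where 8.82%, 30.8% and 3.83% of all genes did. Medians were -0.05, -0.03 and -0.02. CELF2, 3350 bases from SFTA1P, had values of 0.28 (SE 0.14), 0.16 (SE 0.16) and 0.11 (SE 0.14), and VWA2, 335 bases from AFAP1L2, had a median of 0 CPM. SDC4, which encodes a syndecan and lies near SLPI, had values of -0.23 (SE 0.14), -0.03 (SE 0.29) and -0.19 (SE 0.16).

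Of genes whose pattern was most like each member, found by Pearson's r of log2(CPM + 1) over 18 libraries among 12802 genes, JAG1 ranked first for LITAF (r = 0.954). SERPINB9 (0.931) and SPHK1 (0.891) followed. For KRT79 the nearest were COL6A3 (0.944), GALNT12 (0.881) and PTPRE (0.880), and for AFAP1L2 they were OTULINL (0.918), SMAD3 (0.910) and COL6A3 (0.902). For SLPI they were CTSB (0.930), CELSR1 (0.929) and SMAD3 (0.927). CREB3L1 was nearest to TIMP1 (0.915) and CHST15 (0.877), and SFTA1P to NRBP1 (0.954), RBBP6 (0.918) and CDC42SE1 (0.916). JAG1 was 156 in the ranking for AFAP1L2, 33 for KRT79, 167 for CREB3L1, 216 for SFTA1P and 757 for SLPI. The 18 libraries share groups and depth and the members were chosen to follow JAG1, so these values are a description. After group means were removed, r stayed between 0.65 and 0.91 for 12 of these pairs. It was 0.58 for LITAF with JAG1, 0.51 for SLPI with CELSR1, 0.38 for LITAF with SPHK1, 0.30 for LITAF with SERPINB9 and -0.12 for AFAP1L2 with COL6A3. With JAG1 that within-group r was 0.48 for KRT79, -0.04 for SFTA1P, -0.22 for AFAP1L2, -0.59 for SLPI and -0.64 for CREB3L1.

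Proliferation genes moved with part of the pattern. After group means were removed, the correlation with the mean log2 level of the 20 proliferation genes was -0.78 for SFTA1P, -0.79 for SLPI and -0.72 for CREB3L1 over 18 libraries, and -0.01 for AFAP1L2, 0.53 for KRT79 and 0.40 for LITAF. In ctrl, SFTA1P was at 7.73 and 7.67 CPM in the libraries whose proliferation list summed to 1968 and 2800 CPM and at 21.0 CPM in replicate 3, where it summed to 576 CPM. In siJag1 it was at 10.9 CPM beside 2563 CPM and at 20.8 and 19.4 CPM beside 541 and 586 CPM. Without the 5 libraries above 1500 CPM, which left 1 Jag1KO, 1 ctrl and 2 siJag1 libraries, the log2 difference of SFTA1P went from 0.96 to 0.72, from 1.54 to 0.65 and from 0.80 to 0.52 in the 3 comparisons. That of LITAF went from 0.43 to 0.50, from 0.57 to 0.58 and from 0.43 to 0.43, and those of KRT79 from 2.07 to 2.47, from 1.14 to 1.39 and from 0.85 to 0.85. AFAP1L2 went from 1.82 to 1.29 in the knockout pair but from 0.86 to 1.03 and from 1.25 to 1.51 in the others. CREB3L1 and SLPI kept between 72.2% and 83.8% of their differences. All 18 differences stayed above 0, but the rule had fixed this. It placed every JAG1-high library above every JAG1-low library of its pair, so nothing is read from the sign. The part of proliferation in the differences was not tested.

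**Figure D5:**
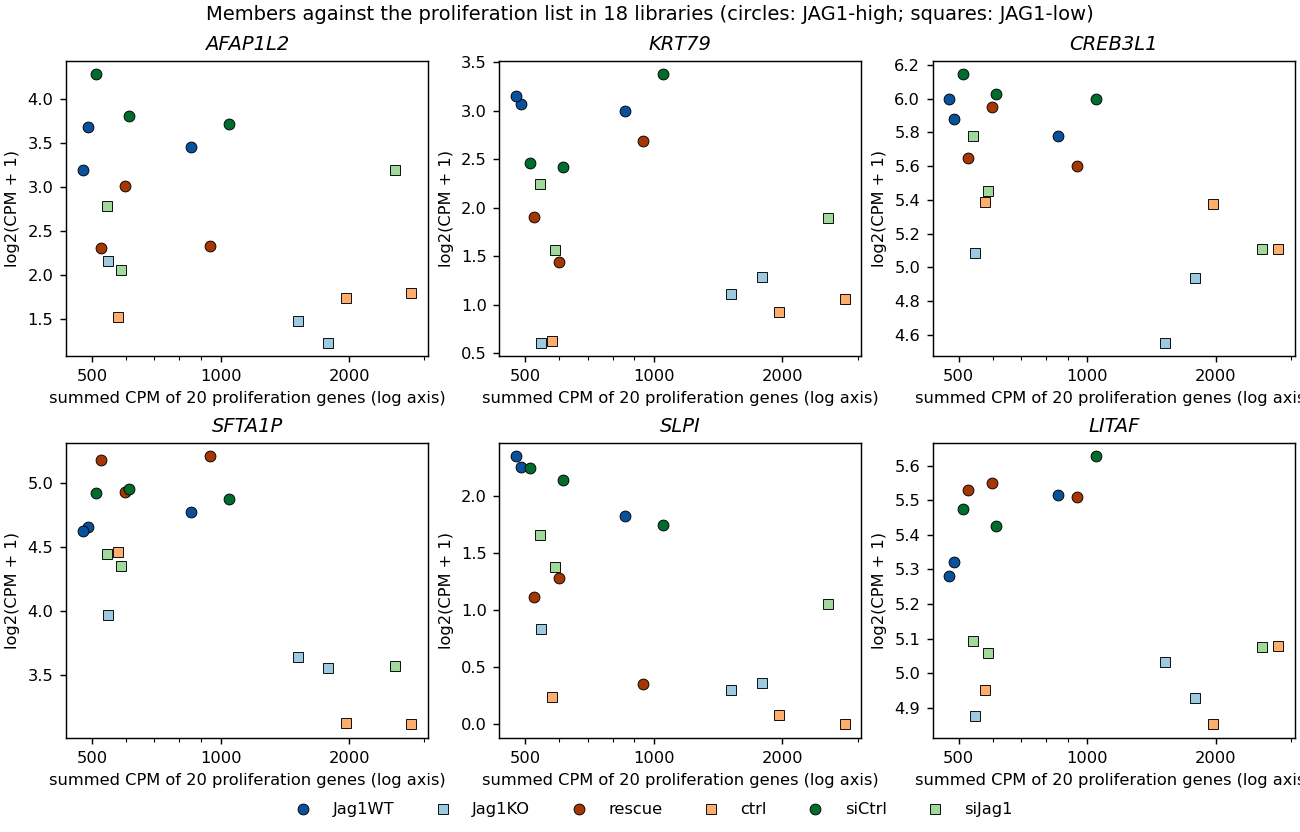
Each panel plots one gene as log2(CPM + 1) against the summed CPM of 20 proliferation genes (log axis) in 18 libraries, with circles for JAG1-high and squares for JAG1-low groups. In SFTA1P the squares above 1500 CPM on the horizontal axis are the 5 lowest of the panel, while in LITAF circles and squares stay apart at each proliferation level.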

How the data were processed

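The deposited counts are whole reads per gene that the authors counted on hg38, with featureCounts, edgeR (3.28.0), R (3.6.1) and MultiQC (1.5) named in the submitters' processing notes; the aligner is not given in the sources used here. Libraries were made with a stranded poly-A kit. The deposited CPM are a signal that the authors scaled by library size and TMM factor. The deposited RPKM divide these by gene length and served only for comparing levels between genes, and 3 RPKM columns that matched no sample label were not used. Reads of 292 genes without a symbol made up at most 0.0442% of a library.

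Genes above 1 CPM in at least 3 of 6 libraries were tested with edgeR (4.0.16 in R 4.3.3, glmQLFit and glmQLFTest, TMM) and called at a Benjamini-Hochberg adjusted p below 0.05 and a fold change above 1.5. Alternatives were DESeq2 (1.42.0), limma (3.58.1) on log2(CPM + 1), no filter, 1 fit of 18 libraries, a replicate block and leaving out each library. The scripts were tested on simulated data. Differences of members use a pseudocount of 1. Replicate numbers were taken to pair libraries where all 3 correlations of deviations from group means exceeded 0.1, which held for rescue against Jag1WT, siCtrl against Jag1WT and siCtrl against siJag1. The labels call replicates biological and do not say how cultures were separated in time, so p values measure the spread between these libraries. Other named genes were the 3 genes most like each member (1 of them is not reported here), called relatives and neighbors, and relatives or neighbors named for role or position. KRT8, KRT86, PI3 and the other uncalled relatives were singled out after their values were seen. Members and lists were chosen with earlier results of these data known.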

Additional observations from a re-analysis of the deposited data

How the results depend on the processing

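In rescue against Jag1WT the number of members called, 0 with edgeR, was 3 with the replicate block, 3 with DESeq2, 2 without a filter, 1 with limma and 1 with all 18 libraries in 1 fit, and 0 to 2 when 1 library was left out. The share of all genes called there was 10.5% with the block, 6.85% with DESeq2 and 3.78% without a filter. It was 3.52% with limma, 5.09% with all 18 libraries and 0.491% to 9.87% when 1 library was left out. The number of members called stayed 0 under each alternative in the other within-status comparisons. Relatives called in Jag1WT against Jag1KO numbered 2 with DESeq2, 2 without a filter, 2 with the replicate block, 0 with all 18 libraries and 0 to 5 with 1 library left out (5 without Jag1KO replicate 1). With DESeq2 and with the block the second of these was PI3. In rescue against ctrl they numbered 7 with DESeq2, 10 with all 18 libraries and 0 to 21 with 1 library left out (21 without Jag1KO + ctrl replicate 3), and in siCtrl against siJag1 they numbered 1 with DESeq2. Neighbors called in Jag1WT against Jag1KO numbered 1 with DESeq2, 1 without a filter, 1 with the replicate block and 0 to 1 with 1 library left out (1 without Jag1KO replicate 1). With DESeq2 and with the block that neighbor was PI3 again, which is on both lists. In rescue against ctrl the neighbors called numbered 2 with DESeq2, 2 with all 18 libraries and 0 to 7 with 1 library left out (7 without Jag1KO + ctrl replicate 3). The causes were not tested. The share of all genes called moved with these counts. In Jag1WT against Jag1KO it was 1.82% with DESeq2, 0.825% without a filter, 2.19% with the block, 1.14% with all 18 libraries and 7.39% without Jag1KO replicate 1. In rescue against ctrl it was 12.2% with DESeq2, 16.7% with all 18 libraries and 29.0% without Jag1KO + ctrl replicate 3, and in siCtrl against siJag1 it was 0.195% with DESeq2. The block changed no other count of members, relatives or neighbors called.

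In ctrl against Jag1KO small log2 fold changes turned sign. AFAP1L2 was at 0.0642 with limma and 0.0859 with the replicate block. Leaving out 1 library gave -0.25 to 0.49 for AFAP1L2, -0.63 to 0.0147 for KRT79, -0.69 to 0.21 for SFTA1P and -0.0589 to 0.0587 for LITAF. In siCtrl against Jag1WT SLPI ran from -0.32 to 0.0258 when 1 library was left out. The 18 log2 differences of members stayed above 0 under every pseudocount, scaling and left-out library tried. For the pseudocounts and left-out libraries the rule had fixed this sign in advance, and only another scaling could have turned it. With a pseudocount of 0.25, SLPI went from 1.65 to 2.51 in Jag1WT against Jag1KO and from 0.81 to 1.75 in rescue against ctrl. SLPI and KRT79 are limited by their few reads, with 3 libraries per group throughout.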
